A study of Mus musculus with 16 samples.

Results

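Endothelial genes were followed in preparations of ventricular myocytes. The list named 34 genes that mark or serve the lining of blood vessels, and a gene was kept where its mean count over all libraries was at least 5. This left 33 of the 35682 genes in the table, and the gene left out was Tal1 (mean count 4.06), a transcription factor of blood and early endothelium. Of the 33 genes, 31 passed the low-count filter and were tested, among 10945 tested genes in all. The rule uses gene names and the mean count over all libraries, not the difference between genotypes. The groups were 8 wild-type (WT) littermates and 8 mice of the transgenic line B3AR-Tg, which is named for the beta-3 adrenergic receptor, and all 16 had undergone TAC, transverse aortic constriction, which loads the left ventricle with pressure. Cells were taken 9 weeks after the surgery by perfusing the heart with the Langendorff method and were plated for 1 hour before RNA was extracted. The labels give a genotype and a replicate number for each animal. The transgene's promoter, the species of its receptor and the age and sex of the animals are not given in the sources used here, and no animal without TAC was analysed here.

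Each cardiac myocyte lies beside capillaries, and endothelial cells are among the most numerous cells of the heart. Their identity is set by transcription factors of the ETS family (Erg, Fli1, Ets1) and of the SoxF group (Sox7, Sox17, Sox18). VE-cadherin and claudin-5 seal their junctions, and receptors for vascular endothelial growth factor (Kdr, Flt1) and angiopoietin (Tek, Tie1) control their growth and stability. A myocyte preparation that still holds some vessel cells carries these transcripts at low level, and in a bulk sample fewer cells of a type and less RNA per cell cannot be told apart.

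Library totals ran from 5985335 to 14365864 counts, and 3 counts, taken as the floor of detection, stood for 0.201 to 0.487 CPM, the count scaled to library size with TMM factors. The smallest library was B3AR-Tg replicate 4. Myocyte markers were abundant in every library: 12 of them summed to between 69330 and 92880 CPM among WT animals, against 73500 to 109900 CPM among transgenic ones. Mouse Adrb3, the gene of the receptor that gives the line its name, held 0 to 4 counts in WT and 0 to 3 in B3AR-Tg, so it did not separate the genotypes. Over all tested genes, 537 passed an edgeR adjusted p under 0.05, 315 lower and 222 higher in B3AR-Tg. The share of these calls that was higher was 41.3% here and 67.7% where libraries were scaled by their totals only.

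Endothelial transcripts were lower in B3AR-Tg in 7 of 8 animals and not in the eighth. The 33 genes summed to between 296.7 and 418.7 CPM in WT, with a median of 372.2. In B3AR-Tg the sum was lowest in replicate 2 (128.1 CPM), had a median of 241.7 and was highest in replicate 4 (443.3 CPM). The other 6 B3AR-Tg animals lay between 213.8 and 251.6 CPM. Replicate 4 was thus above all 8 WT animals, and the remaining 7 B3AR-Tg animals were all below the lowest WT animal.

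Gene by gene, all 31 tested genes had a negative log2 fold change (B3AR-Tg minus WT), against 48.9% of all tested genes. Their median was -0.64, beside 0.01 over all tested genes, and single values ran from -1.39 for Sox17 to -0.11 for Egfl7. At an adjusted p under 0.05, 6 of the 31 fell and 0 rose. Among all tested genes, 2.88% fell and 2.03% rose by that rule. The 6 genes were Sox17, Pecam1, Flt1, Emcn, Esam and S1pr1. A further 14 genes had an unadjusted p under 0.05 and did not pass after adjustment. Unadjusted, that made 20 genes lower and 0 higher, where 10.6% of all tested genes were lower and 8.71% higher. Sox17 met the low-count filter in 8 WT but only 3 B3AR-Tg libraries, so it entered the test mainly through the group in which it was high.

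**Figure D1:**
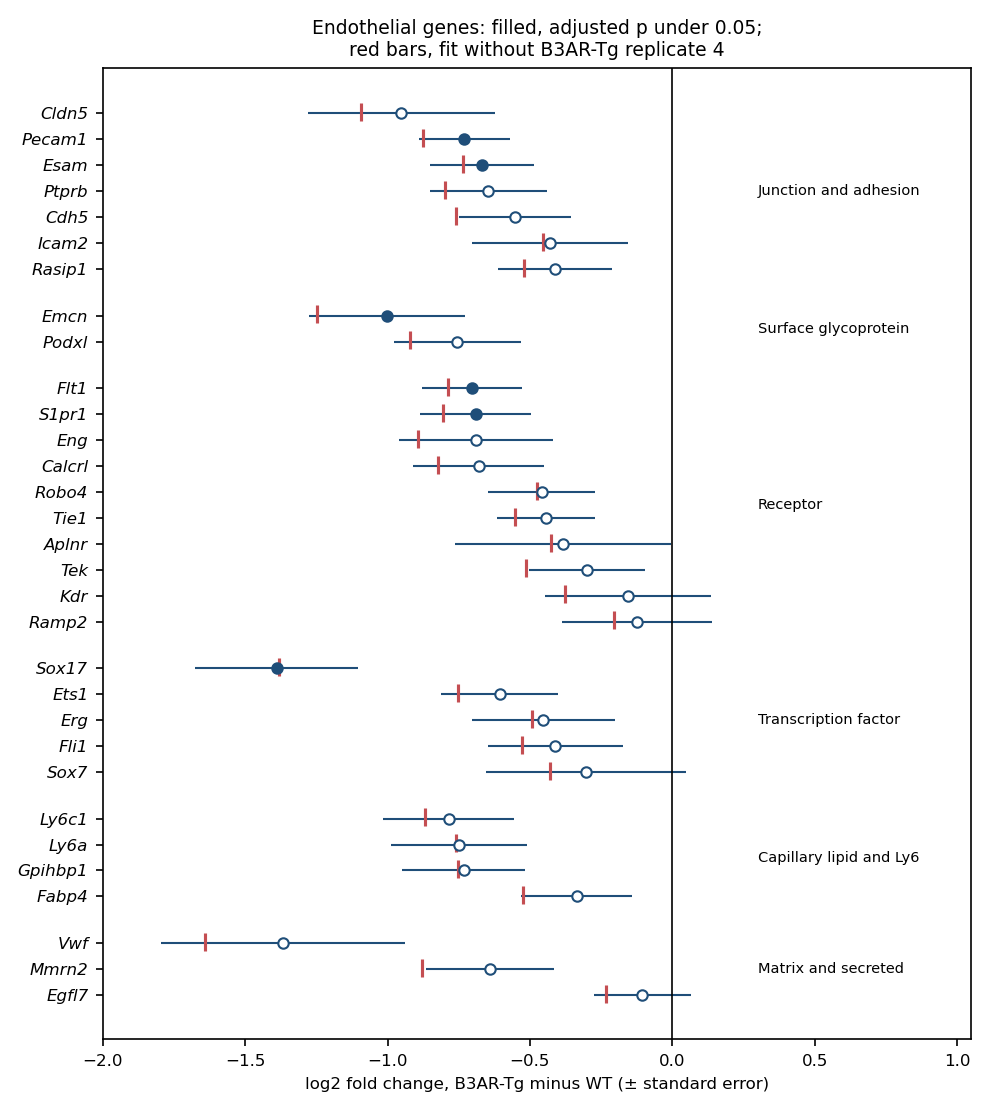
Log2 fold change (B3AR-Tg minus WT) of the 31 tested endothelial genes by role, with bars of 1 standard error. Filled points passed an adjusted p under 0.05 (6 genes), and red marks give the value without B3AR-Tg replicate 4; every point lies left of 0.

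Markers of other cells were measured in the same libraries. Fibroblast markers (12 genes) summed to between 83.9 and 261.9 CPM among WT animals (median 173.9), against 29.7 to 110.1 CPM among transgenic ones (median 56.0). Of the 10 tested, 5 fell (Col1a2, Col3a1, Col1a1, Postn and Dcn) and 0 rose, where 2.88% of all tested genes fell and 2.03% rose. The median log2 fold change of the 10 was -1.21. Col1a1 met the low-count filter in 7 WT but only 1 B3AR-Tg library, so it entered the test mainly through WT. In B3AR-Tg replicate 4 the fibroblast sum was 81.4 CPM, below every WT animal, while its endothelial sum was above every WT animal. That fibroblast sum was rank 3 from the highest of its genotype, and the lowest WT animal was at 83.9 CPM. Its mural sum, 136.0 CPM, was rank 2 from the highest of its genotype, and its leukocyte sum was 9.75 CPM. Replicate 2 was the lowest of its genotype in the fibroblast (29.7 CPM), mural (49.1 CPM) and leukocyte (1.59 CPM) sums as well as in the endothelial sum. Beyond these values, the part of other cells in the endothelial differences was not tested.

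Mural cell markers (11 genes of pericytes and smooth muscle) summed to 93.2 to 167.6 CPM among WT animals, against 49.1 to 146.6 CPM among transgenic ones, with medians of 101.3 and 106.9 CPM. Of the 8 tested, 0 passed, 7 had a negative log2 fold change and the median was -0.51. The exception was Acta2 of smooth muscle, among the most abundant of the list (mean 39.1 CPM among WT animals, against 52.3 CPM among transgenic ones), and 3 genes, Pdgfrb, Notch3 and Cspg4, were lower at an unadjusted p under 0.05. Leukocyte markers (15 genes) summed to 6.05 to 24.6 CPM among WT animals, against 1.59 to 11.3 CPM among transgenic ones. None of the 4 tested passed, all 4 had a negative log2 fold change with a median of -0.84, and 2 (Mrc1 and Lyz2, of macrophages) had an unadjusted p under 0.05. Cd3e of T cells was at 0 in every library. Platelet and red cell markers (10 genes) summed to at most 2.55 CPM in any animal, with Ppbp at 0. The 12 myocyte markers had a median log2 fold change of 0.08, with Ryr2 higher (0.46, adjusted p = 0.0359) and Tnnc1 lower (-0.27, adjusted p = 0.0431). That is 1 higher and 1 lower of 12, where 2.03% of all tested genes rose and 2.88% fell. Ryr2 passed in 8 and Tnnc1 in 3 of the 16 fits that left out 1 animal.

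**Figure D2:**
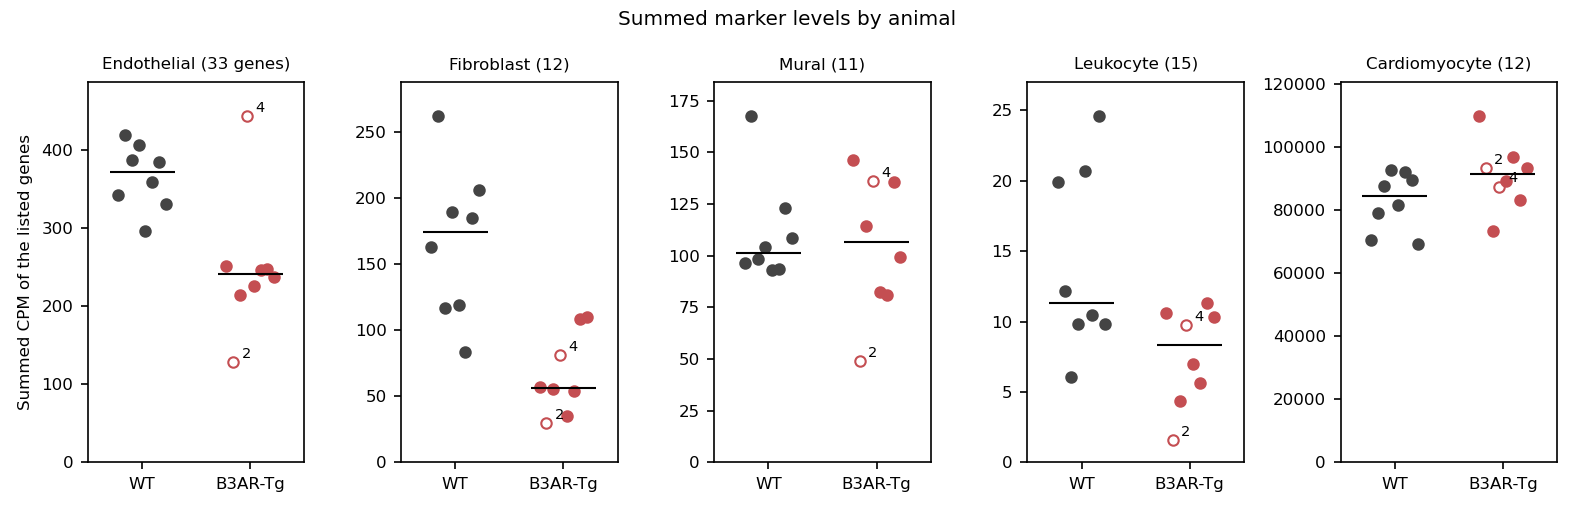
Summed CPM of the endothelial genes and of marker lists of other cell types in each animal, with the median of each genotype as a line; open circles are B3AR-Tg replicates 2 and 4. Replicate 4 is above all WT animals for the endothelial sum (443.3 CPM) and below all of them for the fibroblast sum (81.4 CPM).

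The count of calls depended on single animals. Without B3AR-Tg replicate 4, 15 of 31 tested genes fell, where 2.88% of all tested genes fell and 1.74% rose, and the median log2 fold change was -0.75. That animal had the highest endothelial sum of its genotype, so leaving it out favours calls of a fall in this list. The 15 held all 6 genes called with every animal, and the added ones were Cdh5, Vwf, Ptprb, Podxl, Eng, Ets1, Mmrn2, Calcrl and Ly6c1. Without B3AR-Tg replicate 2, the animal with the lowest sum, 3 of 32 fell (2.04% of all tested genes fell and 1.41% rose), and these were Pecam1, Sox17 and Flt1. Without both animals, 11 of 32 fell (1.59% of all tested genes fell and 0.907% rose). No endothelial gene rose in any of these fits. The tool mattered as well. DESeq2 called 12 of 31 lower and 0 higher, where it called 4.44% of all tested genes lower and 2.91% higher, and limma voom with sample weights called 13 lower and 0 higher, where it called 3.63% lower and 2.82% higher. Scaling by library totals only left 2, Pecam1 and Sox17, where 1.51% of all tested genes fell and 3.16% rose. Leaving out WT replicate 1 gave 3 genes, where 2.11% of all tested genes fell. Leaving out WT replicate 2 (2.14% of all tested genes), WT replicate 4 (1.45%), B3AR-Tg replicate 5 (1.45%) or B3AR-Tg replicate 8 (1.82%) gave 2 genes each, Pecam1 and Sox17. Calls over all tested genes were thus also fewer in these fits. Over the 16 fits that left out 1 animal, Pecam1 and Sox17 passed in 16, Flt1 in 11, Esam in 9, and Emcn and S1pr1 in 5 each.

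Promoters are shown for 5 genes that span the response: Flt1 and Emcn, which fell, and Tie1, Cldn5 and Kdr, which did not pass. The sequences are RefSeq promoters on GRCm38.p6, from 250 bases before to 50 after the annotated start, written 5′ to 3′ on the gene's strand. Capitals mark AGGAAG, a sequence bound by ETS factors, on either strand (CTTCCT where it lies on the other strand).
Flt1, chr5:147725962-147726261, minus strand: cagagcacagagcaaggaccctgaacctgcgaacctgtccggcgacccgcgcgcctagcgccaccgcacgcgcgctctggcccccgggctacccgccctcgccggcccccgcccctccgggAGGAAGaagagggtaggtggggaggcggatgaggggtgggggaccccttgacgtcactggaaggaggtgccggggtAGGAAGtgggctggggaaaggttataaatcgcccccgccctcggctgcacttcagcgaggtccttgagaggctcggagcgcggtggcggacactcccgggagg
Emcn, chr3:137340828-137341127, plus strand: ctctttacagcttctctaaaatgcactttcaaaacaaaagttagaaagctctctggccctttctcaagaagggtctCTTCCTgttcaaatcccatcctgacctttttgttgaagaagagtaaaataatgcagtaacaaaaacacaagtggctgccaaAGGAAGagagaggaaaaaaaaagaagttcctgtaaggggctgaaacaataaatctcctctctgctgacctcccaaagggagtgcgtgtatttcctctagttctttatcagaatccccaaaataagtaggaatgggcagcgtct
Tie1, chr4:118489800-118490099, minus strand: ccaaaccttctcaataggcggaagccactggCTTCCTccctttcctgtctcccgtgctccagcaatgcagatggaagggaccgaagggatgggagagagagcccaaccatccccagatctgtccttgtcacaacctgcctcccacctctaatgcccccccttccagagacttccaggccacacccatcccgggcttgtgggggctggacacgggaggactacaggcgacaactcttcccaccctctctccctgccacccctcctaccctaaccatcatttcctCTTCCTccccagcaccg
Cldn5, chr16:18776597-18776896, plus strand: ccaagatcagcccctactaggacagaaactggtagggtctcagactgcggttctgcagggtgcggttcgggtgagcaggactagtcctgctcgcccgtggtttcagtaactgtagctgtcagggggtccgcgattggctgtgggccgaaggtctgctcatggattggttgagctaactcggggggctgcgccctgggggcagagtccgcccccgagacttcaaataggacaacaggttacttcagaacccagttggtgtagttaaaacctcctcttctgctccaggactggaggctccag
Kdr, chr5:75978406-75978705, minus strand: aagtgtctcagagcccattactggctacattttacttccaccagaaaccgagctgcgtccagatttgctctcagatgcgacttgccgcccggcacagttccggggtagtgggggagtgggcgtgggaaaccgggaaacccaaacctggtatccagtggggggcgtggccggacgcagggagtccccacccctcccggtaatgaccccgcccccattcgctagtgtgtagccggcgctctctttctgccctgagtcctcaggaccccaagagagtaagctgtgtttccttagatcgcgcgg
AGGAAG was present in Flt1, Emcn and Tie1 and in neither Cldn5 nor Kdr. Entries were found for 13 of the 33 genes, with 18 start sites between them. Of these 18 promoters, 11 (61.1%) held AGGAAG on either strand, and 7127 of 20839 promoters (34.2%) of genes in the count table did. CCGGAAG, another ETS sequence, was in 0 of the 18 and in 11.6% of all. The SOX sequences ACAATG and ACAAAG were in 2 and 4 of the 18 (10.9% and 16.8% of all), the GATA sequence AGATAA in 2 (9.48% of all) and the KLF sequence CCACCC in 8 (33.8% of all). No motif contains another, matches of different motifs can overlap at their ends, and start sites of the same gene can overlap, so the 18 promoters are not independent.

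The junction and adhesion genes hold neighbouring endothelial cells together. Pecam1, which encodes the adhesion molecule CD31, lay between 20.5 and 32.9 CPM among WT animals (median 25.1), against 8.92 to 28.3 CPM among transgenic ones (median 15.4). The 7 B3AR-Tg animals other than replicate 4 reached at most 16.6 CPM and lay below every WT animal. Its mean went from 26.6 ± 4.39 (SD, n = 8) to 16.2 ± 5.44 CPM, which is -0.73 as a log2 fold change (SE, the standard error, 0.16; edgeR adjusted p = 0.0132). Esam, an adhesion molecule of endothelial tight junctions and platelets, lay between 4.42 and 8.83 CPM among WT animals (median 5.65), against 2.38 to 5.36 CPM among transgenic ones (median 4.09). The groups overlapped, and none of the transgenic animals exceeded the WT median (log2 fold change -0.67, SE 0.18, edgeR adjusted p = 0.0372). It did not pass without B3AR-Tg replicate 2 (adjusted p = 0.0715).

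Cdh5, the gene of VE-cadherin and a defining marker of endothelium, was the steadiest of the 33 genes in WT, at 19.7 to 27.3 CPM (median 21.8, coefficient of variation 11.6%). In B3AR-Tg it ran from 7.86 to 32.3 CPM (median 13.7), with replicate 4 above all WT animals and the other 7 at no more than 18.8 CPM, below all WT animals. The difference did not pass with every animal included (log2 fold change -0.55, SE 0.20, edgeR adjusted p = 0.112), and without replicate 4 it did (-0.76, adjusted p = 0.00832). Leaving out the highest animal favours such a call, and without replicate 2 the difference was smaller (-0.45, adjusted p = 0.1815). Cldn5, the tight junction protein claudin-5, lay between 1.31 and 5.27 CPM among WT animals (median 2.63), against 0.265 to 2.76 CPM among transgenic ones (median 1.41). The lowest of these values is at the floor, and Cldn5 did not pass (log2 fold change -0.95, SE 0.33, edgeR adjusted p = 0.101). Ptprb, the phosphatase VE-PTP that acts on VE-cadherin and Tek, had a log2 fold change of -0.65 (adjusted p = 0.0747). Icam2 and Rasip1, the latter a Ras-interacting protein needed for vessel lumens, had values of -0.43 and -0.41 and did not pass either. Of the 7 genes in this group, 2 fell and 0 rose.

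**Figure D3:**
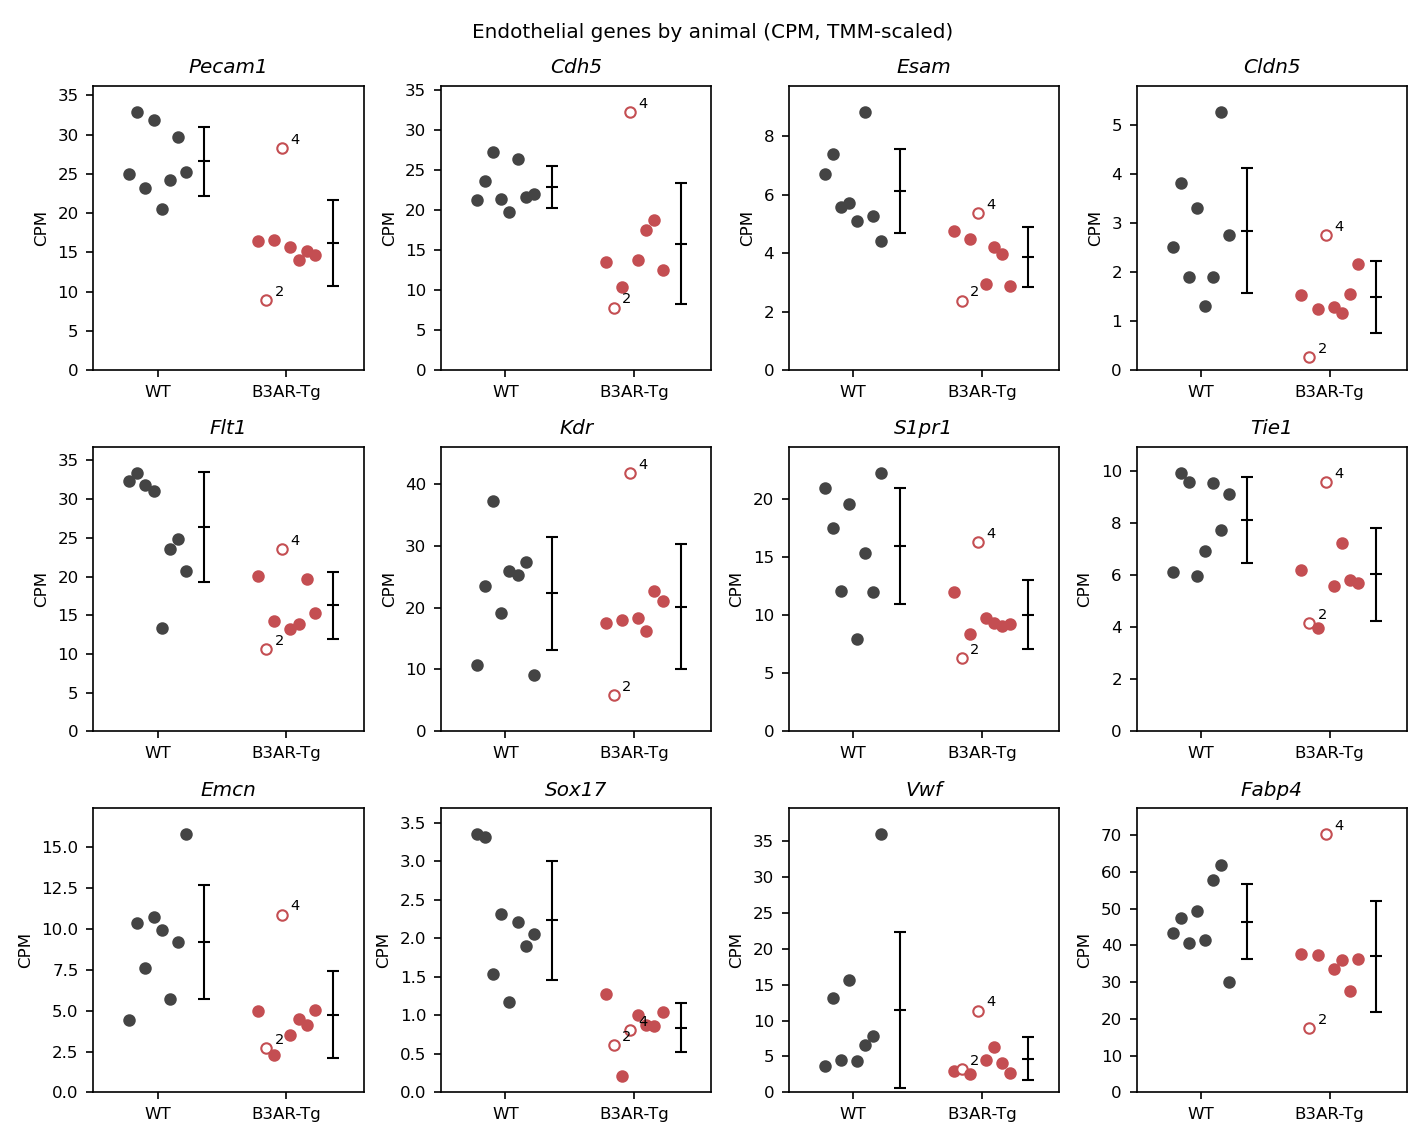
CPM of 12 endothelial genes in each animal, with the mean and SD of each genotype beside the points; open circles are B3AR-Tg replicates 2 and 4. For Pecam1 and Cdh5, replicate 4 lies among or above the WT animals and the other 7 B3AR-Tg animals lie below all of them, while Sox17 was low in replicate 4 too.

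Receptors pass on signals from growth factors and lipids. Flt1, a receptor that binds vascular endothelial growth factor tightly and limits its action, lay between 13.3 and 33.4 CPM among WT animals (median 28.0), against 10.7 to 23.6 CPM among transgenic ones (median 14.7). WT replicate 5 was the lowest WT animal, replicates 5, 6 and 8 lay within the B3AR-Tg range, and none of the transgenic animals exceeded the WT median. The fitted log2 fold change was -0.70 (SE 0.18, edgeR adjusted p = 0.0249). Kdr, the main signalling receptor for the same growth factor, lay between 9.14 and 37.1 CPM among WT animals (median 24.4), against 5.83 to 41.7 CPM among transgenic ones (median 18.2). Its WT animals were spread widely, with replicates 1 and 8 low, and the genotypes overlapped throughout. The log2 fold change of -0.16 (SE 0.29) did not pass (edgeR adjusted p = 0.816), nor did it without B3AR-Tg replicate 4 (-0.38, adjusted p = 0.487). The difference between the changes of Flt1 and Kdr was not tested.

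S1pr1, the receptor for sphingosine-1-phosphate that steadies the vessel barrier, lay between 7.98 and 22.2 CPM among WT animals (median 16.4), against 6.27 to 16.2 CPM among transgenic ones (median 9.26). No B3AR-Tg animal reached the WT median (log2 fold change -0.69, SE 0.19, edgeR adjusted p = 0.0429), and the call was lost without B3AR-Tg replicate 2 (adjusted p = 0.0849). Tie1, an orphan receptor that partners Tek, lay between 5.98 and 9.94 CPM among WT animals (median 8.45), against 3.97 to 9.58 CPM among transgenic ones (median 5.77). It did not pass (log2 fold change -0.44, SE 0.17, edgeR adjusted p = 0.150). Tek itself, the angiopoietin receptor, had a value of -0.30 (adjusted p = 0.447). Eng, a co-receptor for bone morphogenetic proteins, and Calcrl, which forms the adrenomedullin receptor, had values of -0.69 and -0.68 and did not pass (adjusted p = 0.153 and 0.0926). Ramp2, the partner protein of Calcrl in that receptor, had a value of -0.12 (SE 0.26). Robo4 (-0.46) and the apelin receptor gene Aplnr (-0.38) did not pass. Of the 10 receptor genes, 2 fell and 0 rose.

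Emcn and Podxl encode heavily glycosylated surface proteins, and endomucin, the product of Emcn, is found on capillaries and veins. Emcn lay between 4.44 and 15.8 CPM among WT animals (median 9.58), against 2.30 to 10.9 CPM among transgenic ones (median 4.31). Apart from replicate 4, the B3AR-Tg animals reached at most 5.06 CPM, and among WT animals only replicate 1 was below that. The fitted log2 fold change was -1.002 (SE 0.27, edgeR adjusted p = 0.0371, and 0.0737 without B3AR-Tg replicate 2). Podxl, also made by other cell types, had a value of -0.76 and did not pass (adjusted p = 0.0542). Lyve1, a receptor for hyaluronan on lymphatic endothelium and on some macrophages, was not tested. Its level lay between 0.294 and 1.61 CPM among WT animals, against 0 to 1.46 CPM among transgenic ones, with 0.606 and 0.347 CPM as medians, so most libraries were near the floor.

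Sox17 had the largest fold change of the 31 tested genes. This SoxF factor, known for its part in arteries, lay between 1.18 and 3.36 CPM among WT animals (median 2.14), against 0.209 to 1.27 CPM among transgenic ones (median 0.868). Only 1 pair of animals kept the groups from separating: WT replicate 5 at 1.18 CPM lay below B3AR-Tg replicate 1 at 1.27 CPM. The fitted log2 fold change was -1.39 (SE 0.29, edgeR adjusted p = 0.00931). In B3AR-Tg replicate 4, Sox17 was at 0.812 CPM, below every WT animal and rank 14 of 16 from the highest. Single libraries held 9 to 39 counts of it in WT and 2 to 19 in B3AR-Tg, so its precision is limited by counting.

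The other SoxF genes were not compared with Sox17 in a test. Sox7 lay between 0.786 and 2.80 CPM among WT animals, against 0.209 to 2.44 CPM among transgenic ones, with medians of 1.49 and 1.55 CPM (log2 fold change -0.30, SE 0.35, edgeR adjusted p = 0.685). Sox18 was not tested, and lay between 0.475 and 2.64 CPM among WT animals (median 1.27), against 0.353 to 1.48 CPM among transgenic ones (median 0.623). Among the ETS factors, Ets1, which blood cells also express, had a log2 fold change of -0.61 (adjusted p = 0.0959) and passed without B3AR-Tg replicate 4 (-0.75, adjusted p = 0.0265). Without B3AR-Tg replicate 2 its value was -0.49 (adjusted p = 0.134). Erg and Fli1, both regulators of endothelial identity, had values of -0.45 and -0.41 and did not pass. Of the 5 tested factors, 1 fell and 0 rose.

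The capillary group held genes that serve the delivery of fatty acids to myocytes and genes of Ly6 surface proteins. Fabp4, a fatty acid-binding protein also abundant in fat cells, lay between 30.1 and 61.9 CPM among WT animals (median 45.3), against 17.4 to 70.3 CPM among transgenic ones (median 36.1). Its log2 fold change of -0.34 did not pass (SE 0.19, adjusted p = 0.362). Gpihbp1, which carries lipoprotein lipase across capillary endothelium, had a value of -0.73 (adjusted p = 0.0550). The surface proteins Ly6c1 and Ly6a, the latter also made by fibroblasts and progenitor cells, had values of -0.79 and -0.75 (adjusted p = 0.0533 and 0.0765). Ly6 genes and the Sox genes have close relatives, and how reads that match several genes were assigned is not stated, so their values are uncertain to that extent. None of the 4 passed.

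Vwf, the clotting protein von Willebrand factor of veins, endocardium and platelets, was the most variable gene in WT. It ran from 3.72 to 35.96 CPM there (median 7.26, coefficient of variation 94.1%), with replicate 8 far above the next animal, replicate 4 at 15.6 CPM. In B3AR-Tg it ran from 2.51 to 11.4 CPM (median 3.66). The log2 fold change of -1.37 carried an SE of 0.43 and did not pass (edgeR adjusted p = 0.0718). It was -0.84 without WT replicate 8 (adjusted p = 0.202) and -1.64 without B3AR-Tg replicate 4 (adjusted p = 0.0312). Mmrn2, a matrix protein of vessels that binds growth factor, had a value of -0.64 and did not pass with every animal (adjusted p = 0.108), but did without B3AR-Tg replicate 4 (-0.88, adjusted p = 0.00781). Without B3AR-Tg replicate 2 its value was -0.55 (adjusted p = 0.185). Egfl7, a secreted protein of endothelium, had the smallest value, -0.11 (SE 0.17).

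B3AR-Tg replicates 2 and 4 were often at the ends of their genotype. Replicate 4 was the highest of its genotype for 23 genes and replicate 2 the lowest for 23, with both true of 16 genes. Among the tested genes, replicate 4 was the highest for 22 of 31, where it was the highest of its genotype for 15.8% of all tested genes. Replicate 2 was the lowest of its genotype for 11.1% of all tested genes. Replicate 4 exceeded the WT median for 22 of the 33 genes, and replicate 2 for 0. In WT, replicate 2 was the highest for 9 of the 33 genes and replicate 5 the lowest for 13. The same held for 11.6% and 10.6% of all tested genes.

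**Figure D4:**
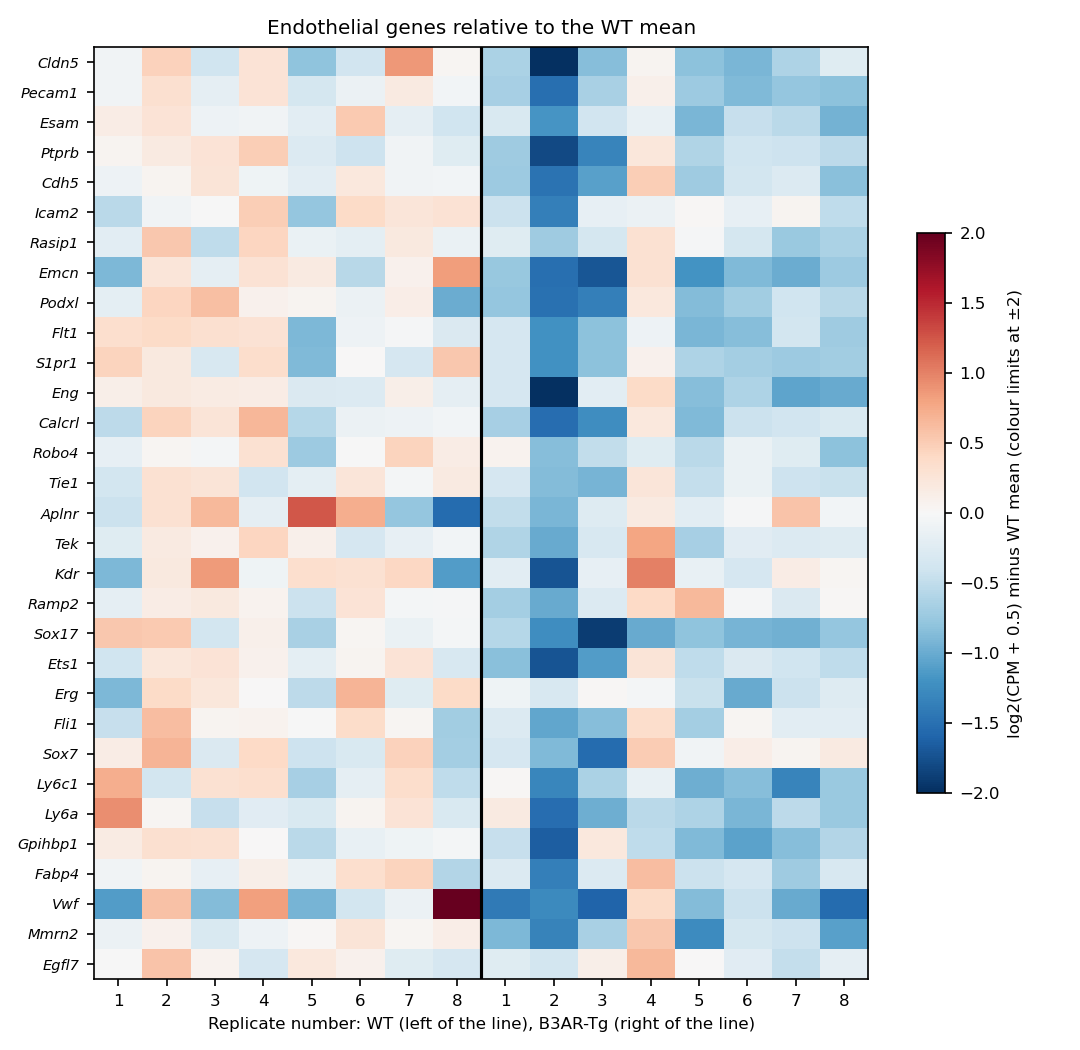
Level of each tested endothelial gene in each animal as log2(CPM + 0.5) minus the WT mean, with genes ordered by role. The column of B3AR-Tg replicate 2 lies below the WT median for every gene, and that of replicate 4 resembles the WT columns except at genes such as Sox17.

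With no animal left out, 0 of the 33 genes had groups that did not overlap, while 0.247% of all tested genes had every B3AR-Tg animal below every WT animal. Without B3AR-Tg replicate 4, 3 of them did (Pecam1, Cdh5 and Mmrn2), where 0.384% of all tested genes did. Replicate 4 was the highest of its genotype for 22 of the 31 tested members, against 15.8% of all tested genes. Leaving it out thus favours separation in this list, and the 0.384% is not a like baseline.

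The makeup of the endothelial signal was described by giving each gene as a percent of the summed CPM of the 33 genes in the same animal. Sox17 took 0.397 to 0.980% of it in WT (median 0.593%) and 0.0977 to 0.506% in B3AR-Tg (median 0.399%), and none of the transgenic animals exceeded the WT median. The share of Egfl7 ran from 1.67 to 3.44% in WT (median 2.44%) and from 2.48 to 5.17% in B3AR-Tg (median 3.18%), and all 8 B3AR-Tg animals were above the WT median. Kdr took a median of 6.33% in WT and 8.30% in B3AR-Tg, with 7 of 8 B3AR-Tg animals above the WT median. Pecam1 took 7.45% and 6.45%, and Cdh5 took 6.44% and 6.12%. The ranges of the genotypes overlapped for each of these genes, and the shares of a whole are not independent of each other. They follow from the same levels as the fold changes, so a gene that fell less than the rest gains share. Sox17 and Egfl7 had the largest and smallest fold changes, and their shares are no separate evidence.

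**Figure D5:**
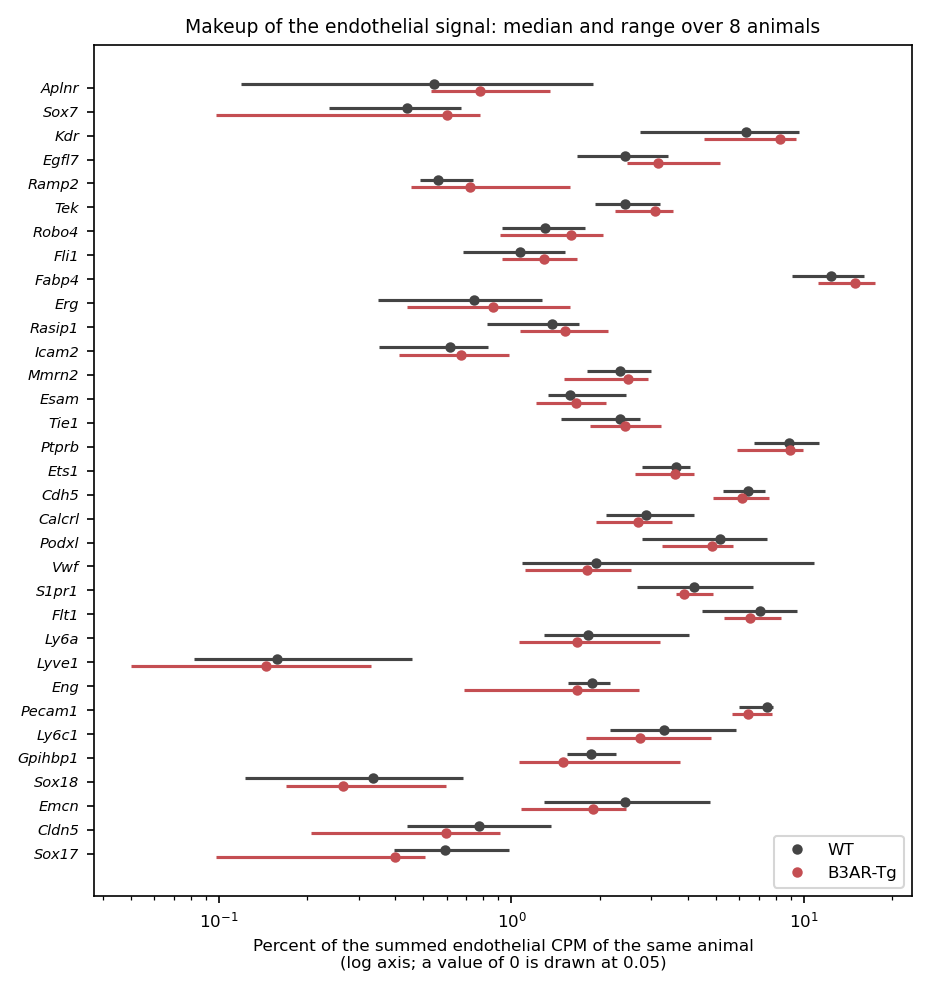
Each endothelial gene as a percent of the summed CPM of the 33 genes in the same animal, on a log axis; dots are medians and lines ranges over 8 animals per genotype, with a share of 0 (Lyve1) drawn at 0.05. Genes are ordered by the ratio of medians, from Sox17 (lowest in B3AR-Tg relative to WT) to Aplnr.

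Per kilobase of annotated exon, the most abundant of the 33 genes in WT was Fabp4, at a mean level of 10.4 CPM per kilobase. Ly6c1 (7.47), Ly6a (6.16), Cdh5 (5.46) and S1pr1 (5.23) followed on that scale, and Pecam1 stood at 4.27. Sox17 (0.469) and Lyve1 (0.269) were the least abundant. From Ly6c1 to Pecam1, neighbours in this order differed by less than 1 SD between WT animals of Ly6c1, Ly6a or S1pr1, the more variable gene of each pair.

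Other endothelial genes, outside the 33, were taken from lists by function, and their counts stand beside the 2.88% of all tested genes that fell and the 2.03% that rose. In the growth factor, Notch, bone morphogenetic protein and transcription regulator lists, each count is a single gene of 10 to 12. Negative and positive log2 fold changes numbered 9 and 2 in the capillary list (median -0.33). They numbered 8 and 7 in the junction and adhesion list (-0.17) and 6 and 5 among transcription regulators (-0.04). In the growth factor list they numbered 7 and 3 (-0.11), in the Notch list 8 and 2 (-0.15). The bone morphogenetic protein list had 11 and 1 (-0.38). Cd34, Aqp1 and Lmo2 passed in all 16 fits that left out 1 animal, Cd93 in 12, Adm in 10, Vcam1 and Emp1 in 8, Plvap, Hey1 and Smad7 in 6 and Itga9 in 5. Of 11 tested capillary genes, 3 fell and 0 rose. Cd34, a surface glycoprotein of capillaries and progenitors, lay between 14.4 and 25.9 CPM among WT animals (median 18.0), against 7.95 to 14.1 CPM among transgenic ones (median 12.7). Its groups did not overlap, replicate 4 included at 13.5 CPM (log2 fold change -0.68, SE 0.14, adjusted p = 0.00931). Aqp1, the water channel of heart capillaries, lay between 23.5 and 51.6 CPM among WT animals, against 15.8 to 30.7 CPM among transgenic ones (-0.74, adjusted p = 0.00931). Plvap, of the diaphragms of endothelial pores, was near the floor in B3AR-Tg (median 0.463 CPM, against 1.73 CPM in WT, -1.76, adjusted p = 0.0450). It met the low-count filter in 6 WT and 2 B3AR-Tg libraries, so it too was tested mainly through WT, and it is among the 3. Nos3, the endothelial nitric oxide synthase, lay between 1.43 and 4.25 CPM among WT animals, against 0.707 to 4.06 CPM among transgenic ones, and did not pass (-0.30, adjusted p = 0.633). Cd36, which myocytes also make in quantity, had medians of 1818 and 1822 CPM and did not pass.

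Among 15 tested junction and adhesion genes outside the 33, 2 fell and 0 rose. Cd93, an endothelial lectin-like receptor, had no B3AR-Tg animal above the WT median (-0.76, adjusted p = 0.0289). Vcam1, to which leukocytes adhere, was at 42.6 CPM in WT replicate 8 and at 2.22 to 8.93 CPM in the other WT animals, while B3AR-Tg animals ran from 0.883 to 7.63 CPM (-1.94, adjusted p = 0.0398). Without WT replicate 8 its value was -1.01 and did not pass (adjusted p = 0.129). Among the 33 genes, WT replicate 8 was the highest WT animal for 3 (Vwf, Emcn and S1pr1) and the lowest for 8. Its endothelial sum, 331.2 CPM, was rank 7 from the highest among WT animals. It was also the highest WT animal for Smad7, Adm and Plvap.

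In the list of other endothelial transcription regulators, 1 of 11 tested genes fell and 0 rose. This was Lmo2, the partner of Tal1, which lay between 10.7 and 26.1 CPM among WT animals (median 19.2), against 5.70 to 14.2 CPM among transgenic ones (median 6.58). None of the transgenic animals exceeded the WT median, and replicate 4 was at 7.31 CPM, below every WT animal (-1.26, SE 0.22, adjusted p = 0.00444). Of 10 tested genes of the vascular growth factor and angiopoietin list, 1 fell, Adm, the gene of adrenomedullin (-1.47, adjusted p = 0.0249), and 0 rose. Vegfa, which myocytes make, had a median of 191.4 CPM among WT animals, against 172.5 CPM among transgenic ones, and did not pass (-0.18, adjusted p = 0.533).

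In the Notch list, 1 of 10 tested genes fell and 0 rose. Hey1, a target of Notch signalling, was at low level, 0.392 to 5.61 CPM among WT animals, against 0.177 to 1.95 CPM among transgenic ones (-1.46, adjusted p = 0.0422). Notch1 (-0.79, adjusted p = 0.138) and its ligand Dll4 (-0.11, adjusted p = 0.909) did not pass. In the list of bone morphogenetic protein signalling, 1 of 12 fell, the inhibitor Smad7 (-0.85, adjusted p = 0.0420), and 0 rose.

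Lists for kinds of vessel had few tested genes. None of 5 arterial genes passed, and all 5 had a negative log2 fold change, with a median of -0.47. Of 2 tested venous genes, Emp1, which many cell types make, fell (-1.15, adjusted p = 0.0362), and Ephb4, a receptor of veins, did not pass (0.05, adjusted p = 0.925). None of 4 endocardial genes passed. Of these 4, 2 had a negative and 2 a positive log2 fold change, with a median of -0.02. The negative values were those of the endocardial natriuretic peptide receptor Npr3 (-0.72, adjusted p = 0.155) and of Edn1 (-0.07). Of 3 tested lymphatic genes, 1 had a negative and 2 a positive log2 fold change. The negative value was that of Itga9, which fell (-0.62, adjusted p = 0.0420). Its mean among WT animals was 76.1 CPM. Its lowest value of all 16 animals, 34.1 CPM, was in B3AR-Tg replicate 4, where the endothelial sum was highest. Which cells made Itga9 here was not tested. Prox1, the lymphatic regulator that myocytes also express, had medians of 50.1 and 69.2 CPM and did not pass (0.25, adjusted p = 0.392). The lymphatic markers Pdpn and Mmrn1 reached at most 0.812 and 0.732 CPM.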

How the data were processed

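RNA of 16 animals (8 WT, 8 B3AR-Tg) was sequenced after ribosomal RNA depletion of 500 ng, per the labels' protocols. The authors deposited whole-number counts per gene without scaling, 1 column per animal, matched to animals by the names in the titles. Salmon and GRCm39 are named in the submitters' processing notes without a role, so whether the counts are rounded estimates is not given in the sources used here.

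Genotypes were compared with edgeR 4.0.16 (R 4.3.3) by the quasi-likelihood F test on the counts, with genotype as the only term, filterByExpr (minimum count 10, minimum total 15), TMM factors and Benjamini-Hochberg adjustment over all 10945 tested genes, two-sided, at 0.05. Standard errors are the log2 fold change divided by the square root of F. No p-value was adjusted over the list alone. Tests were tried on simulated data first. No pair of libraries of the same genotype agreed within sampling noise (chi-square per gene 5.82 or more over 56 pairs). The labels name separate animals and no batch.

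The members, lists, naming rule and most alternatives were chosen with earlier results of these data known. Named were all members, up to 4 genes per other list past the threshold with the smallest p-values, the 2 most abundant markers per cell type, and Nos3, Cd34, Plvap, Npr3, Prox1, Notch1, Dll4, Vegfa, Cd36 and Aqp1. Some covered genes are left out here. Other genes were named after their values were seen. Exon lengths came from GENCODE M21, matched by gene ID for 33 of 33 genes. Promoters of Flt1, Emcn and Kdr were chosen after the results were seen. Same-numbered animals did not deviate together, so numbers were not treated as pairs. Alternatives used DESeq2 1.42.0 and limma 3.58.1.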

Additional observations from a re-analysis of the deposited data

Results flagged for a closer look

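In groups of 8 animals, the highest or lowest animal was marked where its gap to the nearest other animal, on log2(CPM + 0.5), exceeded the 95% limit of Dixon's test as a fraction of the range. Among 130 groups searched there were 7 such gaps, and chance alone gives about 6.5. In B3AR-Tg replicate 2, the gap was below the other animals and took 0.540 of the range for Cldn5 (0.265 CPM against 1.17 to 2.76 CPM), 0.603 for Icam2 (0.530 against 1.36 to 2.26 CPM), 0.541 for Cd93 (4.15 against 9.19 to 17.5 CPM) and 0.538 for the fibroblast gene Col3a1 (1.85 against 4.22 to 8.10 CPM). Tek stood out at the top in B3AR-Tg replicate 4, at 15.8 CPM against 4.15 to 7.53 CPM in the others, a gap of 0.563. Erg was low in B3AR-Tg replicate 6 (1.08 against 1.84 to 2.71 CPM, 0.552), and Vcam1 was high in WT replicate 8 (42.6 against 2.22 to 8.93 CPM, 0.550).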

How the results depend on the processing

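The alternative without both B3AR-Tg replicates 2 and 4 was added after the data were seen. Over 26 alternatives, 30 of the 31 tested endothelial genes kept a negative sign, and the exception was Egfl7 (0.0065 without WT replicate 2, down to -0.2322 without B3AR-Tg replicate 4). At an adjusted p under 0.05, Pecam1 and Sox17 passed under every alternative that tested them, and 13 genes passed under none. The median log2 fold change of the tested members ran from -0.75 to -0.53 when single animals were left out. The count of 6 genes that fell became 2 with scaling by library size only, 12 with DESeq2 and 13 with limma voom and sample weights. It was 11 without B3AR-Tg replicates 2 and 4, and ran from 2 to 15 when single animals were left out. It was 14 at an adjusted p under 0.1 and 1 (Sox17) under 0.01. The share of all tested genes at these other thresholds is not given here. No member rose under any alternative. With the replicate number as a replicate block, 5 members fell, 3 of them among the 6 (Esam, S1pr1 and Emcn were lost, Ly6a and Ly6c1 gained). In that fit 230 of all 10945 tested genes passed (137 lower, 93 higher), in place of 537 (315 lower, 222 higher). Same-numbered animals had correlated deviations between -0.251 and 0.0953, and 0 of 8 WT animals correlated best with their own number. Among named genes outside the list, Dll4 changed sign with limma voom (0.0793) and without WT replicate 2 (0.1748), WT replicate 3 or B3AR-Tg replicate 3, and ran down to -0.2591 without WT replicate 4. Cd36 changed sign with scaling by library size only (0.0567) and without WT replicate 6 (0.0133), and ran down to -0.0473 without WT replicate 8. Neither passed. The causes were not tested. Depth limits Sox17, Sox7, Sox18, Lyve1 and Cldn5, whose libraries held few counts.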
